A study of Bos taurus with 8 samples.

Results

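A set of 10 genes known to be expressed from only 1 parental copy in fetal or placental tissue was examined in bovine fetal liver: DLK1, PEG3, PLAGL1, MEST, PEG10 and NNAT, which are paternally expressed in mouse or human, and CDKN1C, GRB10, IGF2R and PHLDA2, which are maternally expressed in mouse. They were chosen by name, and their array probes were found through the RefSeq accession that each probe carries. Of the 10 genes, 9 had at least 1 probe, with 26 probes in all of 43637 kept on the array, and 25 of these probes were well above background on all 8 arrays. PEG3, a zinc finger gene, had 0 matched probes and was not analysed here. All 9 measured genes belonged to the 10861 genes that were detected in the fetal liver.

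Liver RNA came from Japanese Black fetuses at 8.5 months after conception, 1 fetus per array in the labels. The low-nutrition (LN) group had 4 fetuses (L5, L6, L8 and L9), whose dams received 60% of their nutritional requirement through gestation, and the high-nutrition (HN) group had 4 (L1, L2, L3 and L10), whose dams received 120%. The methods state that fetuses were picked by body weight, low in LN and high in HN, so the groups also differ by that choice. The series text mentions RNA pools per group, which the sample labels do not. The comparison asks whether these growth genes differ in signal in fetal liver between maternal undernutrition (MUN) and ample feeding.

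In genomic imprinting, marks set in the parental germ lines leave only the maternal or only the paternal copy of a gene active in the offspring. Many paternally expressed genes promote fetal growth and many maternally expressed genes restrain it, and a large share of them is active in fetal liver and placenta and falls silent after birth. In cattle, disturbed imprinting at such loci is known from large offspring syndrome of calves conceived in culture. The array reads the summed transcript of both copies, so it gives no information on which allele was active.

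Each group was hybridised on a slide of its own and scanned separately, so nutrition, slide and scan cannot be told apart in any difference given here. Between 32635 and 34369 of 43803 spots per array were well above background, and 0 were saturated. Levels are given as log2 of the background-subtracted intensity after quantile normalization, and every difference is LN minus HN on that log2 scale. Fetal liver identity was checked with markers, and 7 of 8 listed hepatocyte markers were detected, ALB and TTR among them. Their log2 summed signals ran from 20.76 to 20.79 in LN and from 20.75 to 20.79 in HN. Most of these 7 lie at the top of the intensity range, where quantile normalization gives every array nearly the same values. These sums therefore cannot show whether hepatocyte content was alike in LN and HN. Of 9 erythroid markers 6 were detected, with log2 summed signals from 8.22 to 12.66 in LN and from 7.62 to 9.15 in HN. The top value was that of fetus L5, and SLC4A1, KLF1 and EPB42 were not detected. The 7 detected neutrophil markers of 8 ranged from 12.50 to 14.08 in LN and from 11.96 to 13.29 in HN. In bulk liver, a change in the number of cells of a type and a change in RNA per cell cannot be told apart.

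PHLDA2 showed the widest difference between the groups among the 9 measured genes. It encodes a small pleckstrin homology domain protein that restrains placental growth in mouse. Its 1 probe (NM_001076521) had log2 signals of 12.61, 12.42, 12.12 and 12.23 in LN fetuses L5, L6, L8 and L9, and of 11.70, 11.50, 11.15 and 10.25 in HN fetuses L1, L2, L3 and L10. Every LN fetus was above every HN fetus, and L10 lay well below the other HN fetuses. The group means were 12.34 ± 0.22 (SD, n = 4) in LN and 11.15 ± 0.64 (SD, n = 4) in HN, a gap larger than either spread. The difference was 1.20 (SE 0.30, 95% interval 0.53 to 1.87), which is a 2.29-fold higher signal in LN with an interval from 1.44-fold to 3.65-fold. The exact permutation test gave a 2-sided p of 0.0286, the smallest that 4 against 4 fetuses can give. Limma gave an unadjusted p of 0.00302 and an adjusted p of 0.760 over 33440 detected probes, so the difference did not pass adjustment. Across all detected genes, 4.14% had groups that did not overlap and 6.05% reached 0.05 by unadjusted limma p, and no probe reached an adjusted p of 0.05 (the lowest was 0.634).

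The PHLDA2 difference did not rest on a single fetus. Without HN fetus L10 it was 0.90, and without HN fetus L1 it was 1.38, with unadjusted limma p values between 0.0014 and 0.00999 over the 8 omissions. With other scaling, filters and background correction it stayed between 1.12 and 1.21. Of 7 detected neutrophil markers, 3 (ELANE, MPO and CATHL4) also had groups without overlap, beside 4.14% of all detected genes. Their differences were 0.91, 1.32 and 1.78, and their part in the PHLDA2 result was not tested. The other 4 detected neutrophil markers overlapped between the groups, with differences of 0.89, 0.81 and 0.48 for S100A8, S100A9 and S100A12 and of -0.22 for LTF. The lowest PHLDA2 value and the lowest summed neutrophil signal were both found in L10, whereas the highest PHLDA2 value was in L5 and the highest neutrophil signal in L9.

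CDKN1C encodes p57, an inhibitor of cyclin-dependent kinases that halts the cell cycle in many fetal tissues. Its 1 probe (NM_001077903) read 15.53, 15.88, 15.34 and 15.69 in L5, L6, L8 and L9 and 15.54, 15.22, 15.67 and 15.31 in L1, L2, L3 and L10. The groups overlapped over most of their range. The difference was 0.17 (SE 0.16, 95% interval -0.19 to 0.53), with an exact permutation p of 0.257 and an adjusted limma p of 0.874.

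GRB10 encodes an adaptor that binds the insulin and IGF1 receptors and dampens their signal. Its brightest probe (NM_001192586) read 10.86, 11.39, 10.92 and 11.29 in LN (L5, L6, L8, L9) and 11.23, 10.89, 10.98 and 11.27 in HN (L1, L2, L3, L10). Neither group lay above the other, and the difference was 0.023 (SE 0.16, 95% interval -0.35 to 0.39, exact permutation p 0.829). The second probe had a difference of the opposite sign, -0.11 (SE 0.38), although the probes followed each other across the 8 fetuses (r = 0.842). On both probes L6 was the highest and L5 the lowest fetus.

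IGF2R, the cation-independent mannose 6-phosphate receptor, clears IGF2 from the cell surface and carries lysosomal enzymes. The brightest of its 3 probes (NM_174352) read 14.76, 15.07, 14.72 and 14.93 in L5, L6, L8 and L9 and 14.84, 14.88, 15.10 and 14.53 in L1, L2, L3 and L10, a difference of 0.036 (SE 0.15, exact permutation p 0.829). The other 2 probes had lower means in LN, by differences of -0.35 (SE 0.19, 95% interval -0.78 to 0.07, exact permutation p 0.143) and -0.21 (SE 0.23, exact permutation p 0.457). Within the 3 probes the correlation across fetuses ran from -0.60 to 0.65, so the IGF2R probes did not report a common pattern, and the mean over all 3 gave -0.17. Its ligand gene IGF2 had values from 17.74 to 17.97 in LN and from 17.88 to 18.01 in HN, a difference of -0.016 (SE 0.11), and its 10 other detected probes differed by -0.23 to 0.042.

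**Figure D1:**
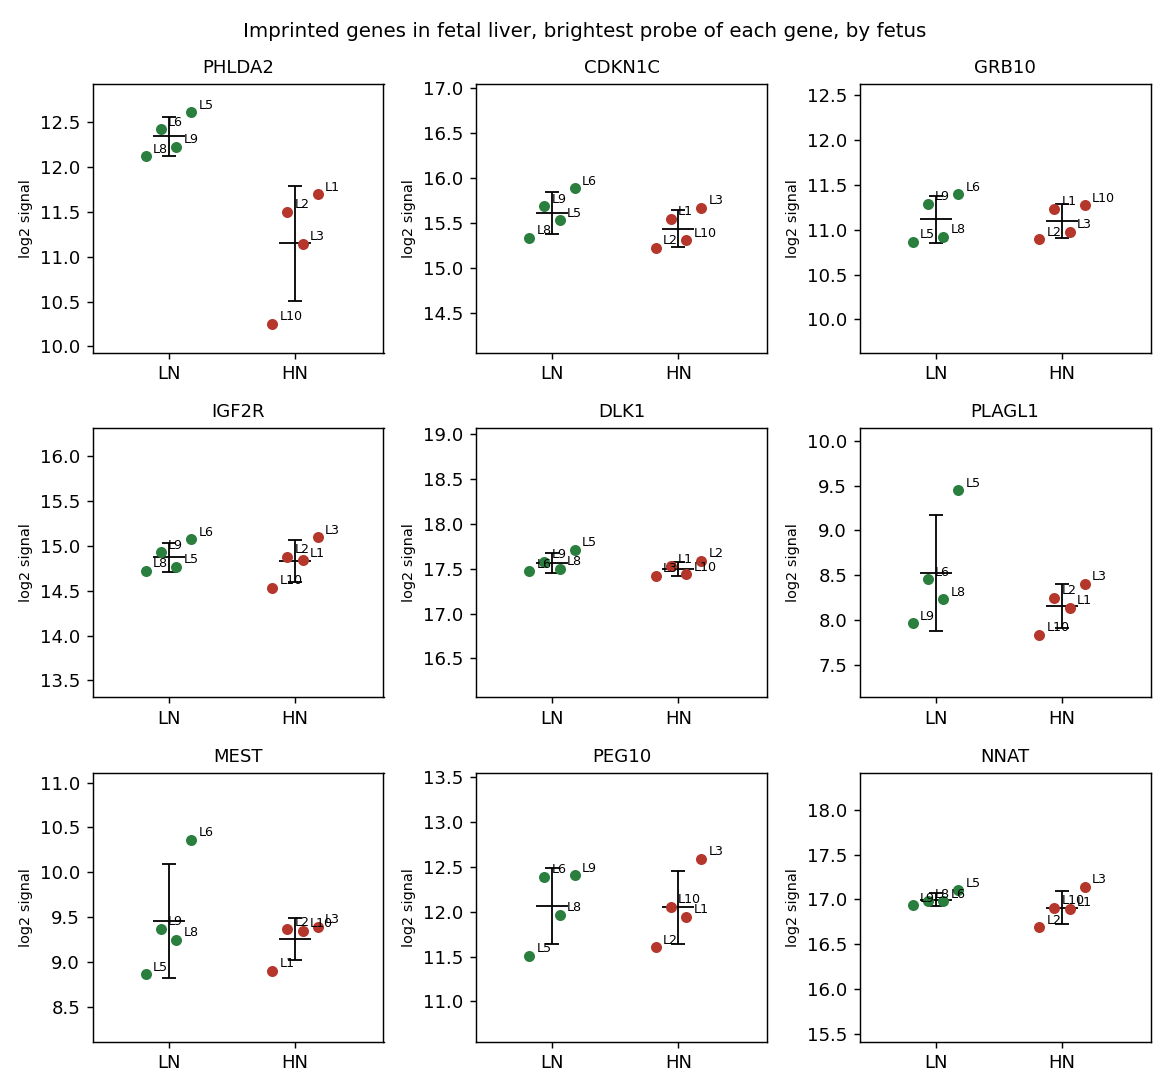
Log2 normalized signal (y axes, each spanning 3 log2 units) of the brightest probe of 9 imprinted genes in LN (green) and HN (red) fetal livers, with 1 labelled point per fetus, the group mean as a horizontal bar and the SD (n = 4) as the error bar. PHLDA2 has no overlap between the groups, with the lowest LN fetus at 12.12 and the highest HN fetus at 11.70, and the other 8 genes overlap, with L5 high for PLAGL1 (9.45) and L6 high for MEST (10.36).

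Among the paternally expressed genes, DLK1 had small differences of the same sign on all 5 probes. It encodes a transmembrane protein related to Notch ligands that marks hepatoblasts, the fetal precursors of hepatocytes. The brightest probe (NM_174037) read 17.71, 17.47, 17.50 and 17.58 in L5, L6, L8 and L9 and 17.53, 17.59, 17.42 and 17.44 in L1, L2, L3 and L10. The groups overlapped within a narrow band, and the difference was 0.070 (SE 0.11, 95% interval -0.18 to 0.32, exact permutation p 0.343). The other 4 probes differed by 0.074 to 0.22. The upper end belonged to a probe with values of 14.64, 14.57, 14.44 and 14.67 in LN and 14.51, 14.34, 14.39 and 14.21 in HN, of which 3 LN values lay above all HN values (SE 0.12, exact permutation p 0.0571, adjusted limma p 0.793). Probes of DLK1 correlated with each other across the fetuses with r from 0.302 to 0.968. The 3 hepatoblast markers AFP, GPC3 and SPP1 differed by 0.34, 0.10 and -0.042, on their brightest probes. The 5 other AFP probes differed by 0.44 to 0.59, and the 2 other GPC3 probes by 0.060 and 0.23, the latter without overlap between the groups (exact permutation p 0.0286, adjusted limma p 0.785).

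PLAGL1 encodes a zinc finger transcription factor that acts on a network of other imprinted genes in mouse. Its brightest probe (NM_001103289) read 9.45, 8.45, 8.23 and 7.96 in L5, L6, L8 and L9 and 8.14, 8.25, 8.41 and 7.83 in L1, L2, L3 and L10. Fetus L5 stood apart, and the remaining 7 fetuses overlapped. The difference was 0.37 (SE 0.30, 95% interval -0.32 to 1.05, exact permutation p 0.371), and without L5 it was 0.059. The second detected probe followed the first (r = 0.984), also with L5 highest at 8.93 and all others between 7.18 and 7.83, and the remaining probe was above background on 0 arrays. L5 was also the fetus with the high erythroid signal given above, at 12.66 against at most 9.15 elsewhere, and the part of erythroid cells in the PLAGL1 values was not tested.

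MEST encodes a membrane-bound protein of the alpha/beta hydrolase fold, and mouse pups without the paternal copy are small. The brightest of its 5 probes (NM_001083368) read 8.86, 10.36, 9.25 and 9.37 in L5, L6, L8 and L9 and 8.90, 9.36, 9.39 and 9.35 in L1, L2, L3 and L10. Fetus L6 was the highest on all 5 probes. All 5 probes had a higher mean in LN, by 0.10 to 0.26, and the brightest gave 0.21 (SE 0.30, 95% interval -0.47 to 0.88, exact permutation p 0.800). Without L6 the difference turned to -0.092. The L6 array had the lowest median intensity before normalization, 63.0 against 68.7 to 106 on the other 7 arrays, and its part in the MEST values was not tested.

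PEG10 derives from a retrotransposon and is needed for the placenta in mouse. Its brightest probe (NM_001109815) read 11.51, 12.39, 11.97 and 12.41 in L5, L6, L8 and L9 and 11.94, 11.60, 12.59 and 12.06 in L1, L2, L3 and L10. The groups covered almost the same range, with a difference of 0.021 (SE 0.26, 95% interval -0.57 to 0.61, exact permutation p 0.971). The 3 probes correlated with r from 0.859 to 0.936, and the other 2 differed by 0.0045 and 0.23.

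NNAT, neuronatin, encodes a small membrane protein of the endoplasmic reticulum, and in other mammals the gene lies in an intron of BLCAP. Its brightest probe (NM_178323) read 17.10, 16.98, 16.98 and 16.93 in L5, L6, L8 and L9 and 16.89, 16.69, 17.14 and 16.91 in L1, L2, L3 and L10. The LN values lay close together (SD 0.073 against 0.18 in HN) and inside the HN range, with a difference of 0.092 (SE 0.12, 95% interval -0.19 to 0.38, exact permutation p 0.371). A further probe of the same transcript and 1 of NM_001201324 differed by 0.15 and 0.13 and correlated with each other at 0.996. Both of these followed the brightest probe poorly, with r down to 0.183.

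**Figure D2:**
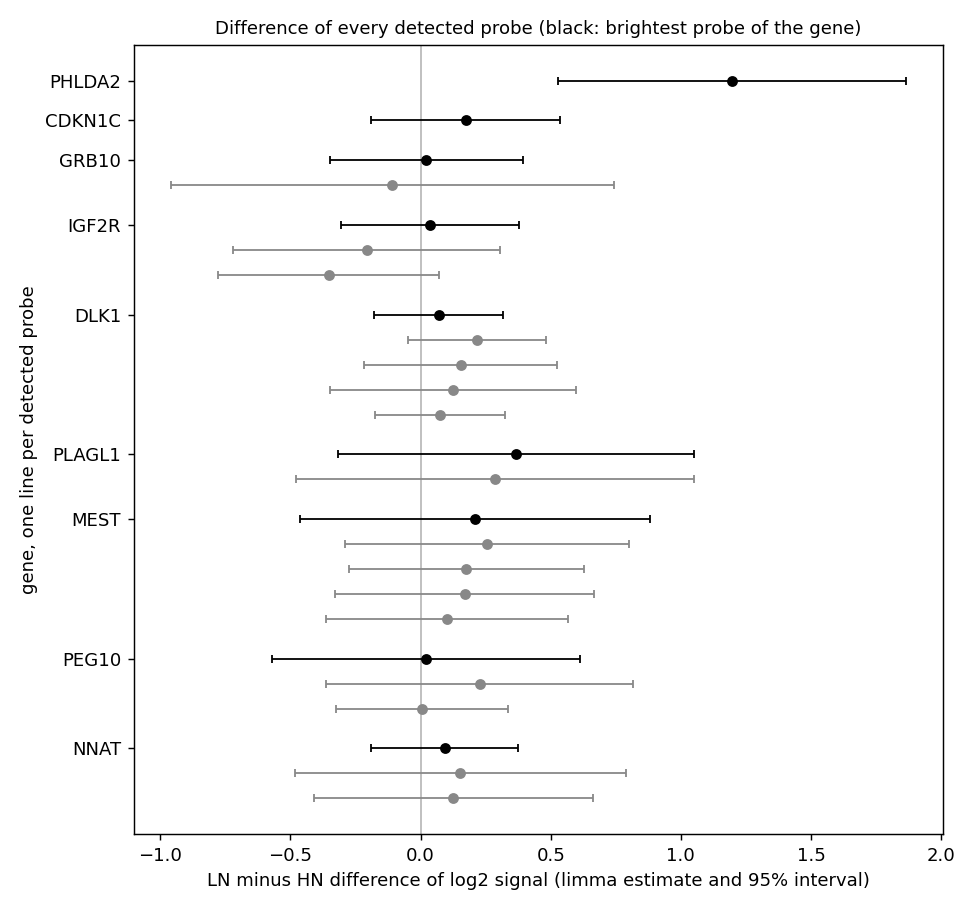
LN minus HN difference of log2 signal (x axis) for all 25 detected probes of the 9 genes (y axis), as limma estimate with 95% interval from 4 LN and 4 HN fetuses, with the brightest probe of each gene in black and the others in grey. The interval of PHLDA2 (0.53 to 1.87) is the one that leaves out 0, and 3 probes, 1 of GRB10 and 2 of IGF2R, lie below 0.

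Gene by gene on the brightest probe, 9 of 9 measured genes had a higher mean in LN, while 51.6% of all 10861 detected genes did. The median difference was 0.092 over the 9 genes and 0.0075 over all detected genes. Since PEG3 was not measured, this covers 5 of 6 paternally and 4 of 4 maternally expressed genes, with medians of 0.092 and 0.10. Of the 9 genes, 1 (PHLDA2) reached 0.05 by unadjusted limma p and had groups without overlap, and 0 passed adjustment. The count of higher means was not stable: without L6 it was 5, with CDKN1C, DLK1, NNAT, PHLDA2 and PLAGL1 still higher, and with the mean over each gene's probes it was 7. By probe, 22 of 25 had a higher mean in LN, and 50.3% of all detected probes did.

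The 9 genes also differed in how much they varied between fetuses. Over the 8 fetuses the SD of the brightest probe was 0.78 for PHLDA2, 0.49 for PLAGL1, 0.46 for MEST and 0.39 for PEG10. The median over all detected genes was 0.24. CDKN1C, GRB10, IGF2R, NNAT and DLK1 had SDs of 0.22, 0.21, 0.19, 0.14 and 0.095 on that probe. On other probes the SD reached 0.58 for GRB10, 0.34 for IGF2R, 0.42 for NNAT and 0.30 for DLK1. For MEST and PEG10 it fell to 0.29 and 0.18, so the order depends on the probe. By brightest probe, DLK1 and NNAT had the narrowest spreads, with intervals of the difference that reached at most 0.38, while on their other probes the upper bound reached 0.60 and 0.79. For PHLDA2 the spread in LN was 0.34 times that in HN, whereas for PLAGL1 and MEST the LN spread was 2.67 and 2.71 times that in HN, through L5 and L6.

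**Figure D3:**
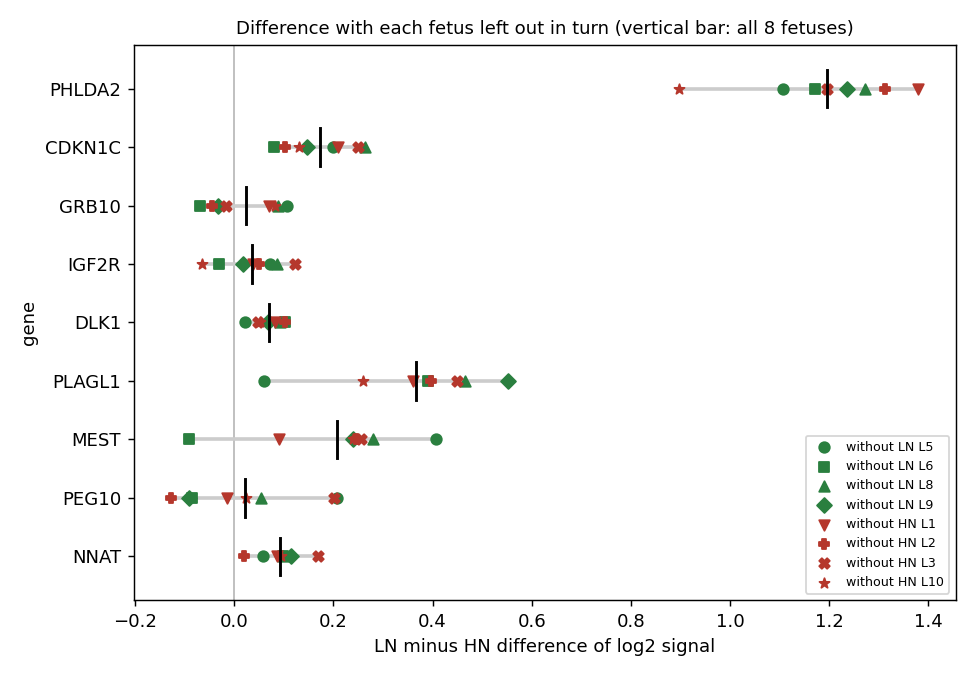
LN minus HN difference of log2 signal (x axis) of the brightest probe of 9 imprinted genes (y axis) when each fetus is left out in turn, with the omitted fetus shown by marker and its group by colour (LN green, HN red) and the value over all 8 fetuses as a vertical bar. PHLDA2 stays between 0.90 and 1.38, PLAGL1 drops to 0.059 without L5, MEST turns to -0.092 without L6, and GRB10, IGF2R and PEG10 also cross 0.

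The genes did not move as a block across fetuses. L6 was above the median in 8 of 9 genes and L9 in 7, but so was the HN fetus L3 in 6, and the LN fetus L8 was above it in 2. L5, L6 and L3 were each the highest fetus in 3 genes, and L5 was also the lowest in 3. Of 36 pairs of genes, 23 had a positive Pearson correlation over the 8 fetuses (median r 0.226) and 0 passed Benjamini-Hochberg adjustment over the 36 pairs, the lowest adjusted permutation p being 0.445. The pair CDKN1C and IGF2R had r = 0.729 and rho = 0.690 (permutation p 0.0401 for r before adjustment), and r = 0.896 without the 2 fetuses at the extremes of CDKN1C, L6 and L2. DLK1 and PEG10 had r = -0.719 and rho = -0.738 (permutation p 0.0422 for r before adjustment), which dropped to -0.306 without L5 and L3.

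Imprinted genes lie in clusters, so the genes next to each member in the order of the ARS-UCD2.0 annotation were examined, up to 2 coding genes on either side. This set was formed after the values of the members had been seen. Of 37 such neighbours 24 were detected, of which 11 had a higher and 13 a lower mean in LN (median -0.017). PHLDA2 lies between NAP1L4 and SLC22A18, and CDKN1C and KCNQ1 follow. NAP1L4, a histone chaperone gene, read 12.12, 12.09, 12.12 and 12.10 in LN and 12.24, 12.14, 12.17 and 11.93 in HN, a difference of -0.011 (SE 0.11, 95% interval -0.26 to 0.24) beside the 1.20 of PHLDA2. KCNQ1 was not detected and SLC22A18 had 0 matched probes.

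Of these neighbours, 2, CARS1 and LTV1, reached 0.05 by unadjusted limma p and had no overlap between groups, which is 2 of 24 beside 6.05% and 4.14% of all detected genes. CARS1, the cysteinyl-tRNA synthetase gene next to NAP1L4, read 6.07, 5.54, 5.90 and 5.43 in L5, L6, L8 and L9 and 5.37, 5.35, 5.30 and 5.09 in L1, L2, L3 and L10. All LN values lay above all HN values, with a difference of 0.46 (SE 0.16, adjusted limma p 0.760). LTV1, a ribosome biogenesis gene 2 coding genes from PLAGL1, differed by 0.61 (SE 0.21, adjusted limma p 0.760), with values from 8.48 to 9.05 in LN and from 7.65 to 8.47 in HN, so the groups were apart by a margin far below their spread, and its second probe differed by 0.69 (SE 0.19), also without overlap. The genes directly beside PLAGL1, SF3B5 and ZC2HC1B, differed by 0.015 (SE 0.16) and -0.37 (SE 0.17, exact permutation p 0.114), and the second ZC2HC1B probe by -0.049 (SE 0.19).

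At the other clusters the neighbours overlapped between the groups. SGCE and PPP1R9A on either side of PEG10 differed by 0.14 (SE 0.16) and 0.043 (SE 0.18), while PON1, a paraoxonase gene 2 coding genes from PEG10, had the widest difference of the 24 neighbours at -1.25 (SE 0.63, exact permutation p 0.143) and -1.32 on its other probe. COPG2 beside MEST differed by 0.16 (SE 0.14). MEG3, the noncoding RNA expressed from the maternal copy of the DLK1 cluster, differed by 0.0011 (SE 0.12), and RTL1 was not detected. BLCAP, adjacent to NNAT, read 13.11, 13.35, 13.15 and 12.42 in LN and 13.62, 13.58, 13.68 and 13.02 in HN, a difference of -0.47 (SE 0.23, 95% interval -0.99 to 0.05, exact permutation p 0.114), opposite in sign to the 0.092 of NNAT. Its 2 other detected probes gave -0.48 and 0.024. SLC22A2, an organic cation transporter gene near IGF2R, differed by -0.71 (SE 0.68) and spread from 8.38 in L5 to 11.89 in L6.

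A wider list held 42 other genes reported as imprinted in at least 1 mammal, of which 29 had a probe and 21 were detected. Of the 21, 15 had a higher and 6 a lower mean in LN, the median difference was 0.043, and on the brightest probe 0 reached 0.05 by unadjusted limma p. The widest differences upward were those of the homeobox gene DLX5 (1.11, SE 0.71), the Prader-Willi region gene NDN (0.27, SE 0.31) and SNRPN, a splicing factor gene (0.23, SE 0.13, exact permutation p 0.0571, and 0.097 on its other probe). DLX5 was high in L6 and L9 (4.88 and 5.38) and between 2.13 and 3.45 in the other 6 fetuses, but its probe was above background on only 4 of 8 arrays, 2 in each group, and with normexp background correction the difference was 0.22. Downward, SLC22A2 and BLCAP were joined by NAP1L5 (-0.51, SE 0.32). H19, the noncoding partner of IGF2, differed by 0.19 (SE 0.13), with 0.088 and 0.20 on its other probes. The brightest probe of GNAS, the stimulatory G protein alpha subunit gene, differed by 0.18 (SE 0.11), and its 5 other detected probes differed by 0.18 to 0.50. Of these, 3 reached 0.05 by unadjusted limma p (differences 0.50, 0.47 and 0.33, SE 0.13, 0.12 and 0.13, adjusted p at least 0.760), and the first 2 had no overlap between the groups. They were the 3 probes at that threshold among 56 detected probes of the list, and 6.32% of all detected probes reached it, while 4.13% had groups that did not overlap.

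Relatives of the members that are not imprinted were compared as the same kind of protein. Of 10 listed, 7 were detected, 5 with a higher and 2 with a lower mean in LN (median 0.12). GRB14, an adaptor of the GRB10 family, had an unadjusted limma p of 0.0481 (difference -0.42, SE 0.18, adjusted p 0.785, unadjusted p from 0.0262 to 0.118 over the omission of each fetus), with values of 8.01, 7.90, 7.72 and 7.88 in LN and 8.00, 8.44, 8.75 and 8.01 in HN. L6, L8 and L9 lay below all HN values and L5 just above the lowest of them, and the second probe gave -0.26 (SE 0.21). GRB7, the third adaptor of the family, differed by -0.36 (SE 0.21), beside the 0.023 of GRB10. PHLDA1, a relative of PHLDA2, differed by 0.59 (SE 0.37), with values from 5.43 to 6.91 in LN and from 5.10 to 6.39 in HN. CDKN1A, which encodes p21 of the CDKN1C family, differed by 0.31 (SE 0.14, exact permutation p 0.0857) on its brightest probe and by 0.074 (SE 0.19) on the other. M6PR, the smaller mannose 6-phosphate receptor, differed by 0.16 (SE 0.19), and its 3 other probes by 0.13 to 0.37, the upper one without overlap between the groups (adjusted limma p 0.760).

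Of 22 binding partners and pathway neighbours of the members, 16 were detected, 6 with a higher and 10 with a lower mean in LN (median -0.049). CCNE1, which encodes cyclin E1, a partner of the kinases that CDKN1C inhibits, was the 1 gene of the 16 with groups that did not overlap. Over all detected genes this share was 4.14%, and 6.05% reached 0.05 by unadjusted limma p. CCNE1 read 7.19, 6.00, 6.38 and 6.44 in L5, L6, L8 and L9 and 5.34, 5.66, 5.57 and 5.81 in L1, L2, L3 and L10. The difference was 0.91 (SE 0.24), with an unadjusted limma p of 0.00444 and an adjusted p of 0.760, and it was 0.68 without L5 and 0.46 with normexp background correction. IGF1R and the kinase gene CDK6 differed by 0.21 (SE 0.21) and 0.19 (SE 0.19), and by 0.018 without L3 and 0.051 without L10, respectively. With scaling to the 75th percentile the IGF1R difference was 0.019. On the lower side, GIGYF1, which encodes a GRB10-binding protein, differed by -0.27 (SE 0.20), CCND1, the cyclin D1 gene, by -0.25 (SE 0.34), and GNPTAB, which makes the tag that IGF2R reads on lysosomal enzymes, by -0.19 (SE 0.17). The other 2 GNPTAB probes pointed in opposite directions, at 0.24 (SE 0.23) and -0.32 (SE 0.13, groups without overlap, adjusted limma p 0.783).

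**Figure D4:**
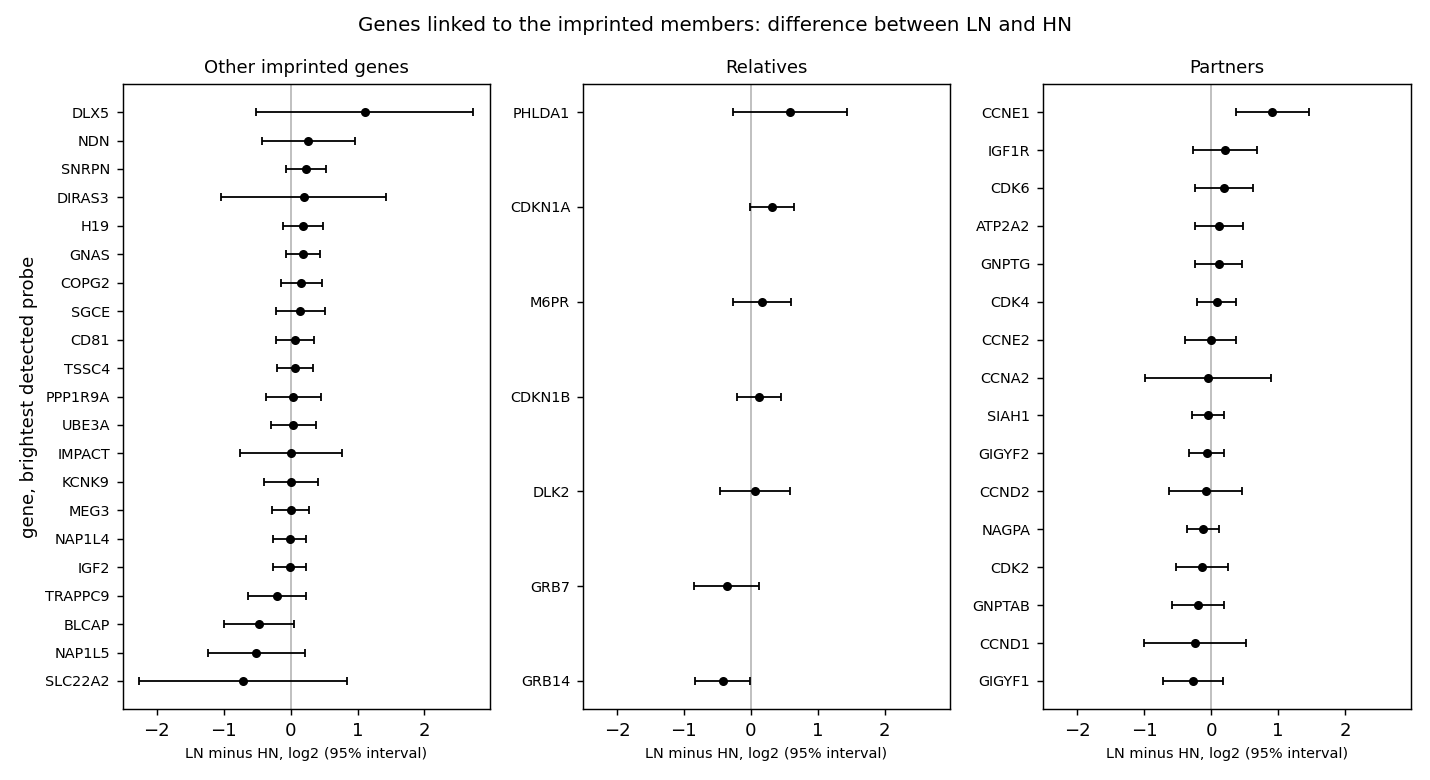
LN minus HN difference of log2 signal (x axes, limma estimate with 95% interval, 4 LN and 4 HN fetuses) for the brightest detected probe of 21 other imprinted genes, 7 non-imprinted relatives and 16 partners of the members (y axes, sorted within each panel). CCNE1 (0.91) lies above 0 and GRB14 (-0.42) below 0 with their whole interval, and the intervals of all other genes shown include 0.

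For the 3 members whose brightest probe had the widest spread, the genes with the most similar pattern were sought among the other 10860 detected genes. The values are descriptive, since the closest of many genes were taken, and all share the same 8 arrays. PHLDA2 was closest to EIF2S2, which encodes a subunit of translation initiation factor eIF2 (r = 0.980, rho = 0.929), to CTH, the cystathionine gamma-lyase gene (r = 0.973, rho = 0.952), and to EIF4E, the cap-binding initiation factor gene (r = 0.968, rho = 0.976). Without the 2 fetuses farthest from the median of PHLDA2 these r values were 0.964, 0.927 and 0.919, and within the groups, after group means were removed, they were 0.938, 0.928 and 0.955. Altogether 70 genes had r above 0.9 with PHLDA2. EIF2S2 ranged from 12.98 to 13.21 in LN and from 12.27 to 12.75 in HN, without overlap, over a narrower span than PHLDA2.

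PLAGL1 was closest to GOLPH3, a Golgi protein gene (r = 0.987, rho = 0.976), and to the transporter gene MFSD14B (r = 0.985, rho = 0.905). Both were highest in L5. Without the 2 fetuses farthest from the median of PLAGL1 the r values were 0.934 and 0.880. MEST was closest to MAML2, a Notch coactivator gene (r = 0.979, rho = 0.762), to RGS3, a regulator of G protein signalling (r = 0.978, rho = 0.905), and to the splicing factor gene PRPF18 (r = 0.952, rho = 0.786). Each of these 3 was highest in L6, and without the 2 fetuses farthest from the median of MEST the r values were 0.945, 0.868 and 0.643.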

How the data were processed

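The authors deposited Agilent Feature Extraction 11.0.1.1 output of 1-colour arrays, in which the processed intensity of each spot is background-subtracted and not normalized between arrays, and a table of log2 values, which the authors made by quantile normalization in GeneSpring GX. Here control and outlier spots were dropped (16 probes), spots of a probe were averaged as log2 intensity, with quantile normalization between arrays (43637 probes). Detection required a spot well above background on 4 or more of the 8 arrays, and a gene was represented by its brightest detected probe. Accessions of 26740 probes matched 12603 genes (RefSeq, ARS-UCD2.0). The array was designed on another build, so no coordinates are given, and no probe sequence was used here.

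Differences between LN and HN were fitted in R 4.3.3 with limma 3.58.1 (lmFit, eBayes, 2-sided, Benjamini-Hochberg adjustment over 33440 detected probes), with exact permutation tests over 35 divisions of the fetuses, and correlations were tested over all 40320 pairings. The functions were tested on simulated data. Precision is limited by the 8 arrays.

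The members and the lists were chosen with earlier results of these data known. Named beside the members were the 3 genes of each list with the widest difference per direction. For the 3 members most variable by brightest probe, the 3 genes with the highest r were also named. IGF2, H19, GNAS, MEG3, the neighbours and the cell markers were named outside this rule, after their values were seen. Values of 2 further genes are left out of the text, though the counts include them. Alternatives were scaling to the 75th percentile, normexp (offset 50, on spot and background medians), the authors' table, no filter, detection on 8 of 8 arrays, a trended and robust eBayes, a block for position on the slide, omission of each fetus, and the mean of a gene's probes.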

Additional observations from a re-analysis of the deposited data

Results flagged for a closer look

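On the brightest MEST probe, HN fetus L1 had a log2 signal of 8.90 and the other HN fetuses lay between 9.35 and 9.39, so that the gap made up 0.905 of the range of the group, above Dixon's critical value of 0.829 for 4 samples. It was the 1 such value among 50 groups of 4 tested. Chance alone passes about 5% of groups.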

How the results depend on the processing

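PHLDA2 kept a higher signal in LN and stayed within 0.05 by unadjusted limma p under all 16 alternatives. Over 46 results and 731 alternative values, 685 kept their direction and side of the threshold or stayed close to the reported count, 31 counts moved and 15 values reversed, and the cause was not tested. With the mean of a gene's probes GRB10 turned to -0.043 and IGF2R to -0.175, so 2 members were lower in LN, and the numbers at an unadjusted limma p of at most 0.05 were 1 for other imprinted genes and 0 for relatives. The number for relatives became 2 with 75th percentile scaling, normexp, no filter on dim probes, and eBayes with trend and robust settings. That for other imprinted genes became 1 with normexp and with position on the slide as a block. Scaling to the 75th percentile gave 630 probes higher and 2182 lower in LN at an unadjusted limma p of at most 0.05, against 1119 and 994, with 45.6% of genes higher in LN and a median gene difference of -0.023. Leaving out 1 fetus at a time gave differences from -0.069 to 0.11 for GRB10 (lowest without L6), from -0.066 to 0.12 for IGF2R (lowest without L10), from -0.092 to 0.41 for MEST (lowest without L6), from -0.13 to 0.21 for PEG10 (lowest without L2), from -0.46 to 0.069 for CCND1 (highest without L3) and from -0.022 to 0.44 for NDN (lowest without L3). Over the same omissions, the members higher in LN numbered 5 to 9 and those lower 0 to 4, and 1 to 2 had groups without overlap (2 without L3). Other imprinted genes higher in LN numbered 11 to 15 and lower 6 to 10. At an unadjusted limma p of at most 0.05, other imprinted genes numbered 0 to 2, relatives 0 to 2 and partners 1 to 2. Probes at an adjusted limma p of at most 0.05 numbered 0 to 1 (1 without L6), and at the unadjusted threshold 657 to 1337 were higher and 686 to 1302 lower in LN, both lowest without L10. Slide as a block was not run, because slides and groups coincide. No paired analysis was possible because the groups share 0 replicate numbers, and the block for position on the slide joins arrays by place and not by animal. Signal over background did not limit the 25 detected probes, and 1 probe of PLAGL1 was not well above background.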
